A study of Homo sapiens with 9 samples.

Results

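A set of 326 genes was read in HK2 cells but was silent, or nearly so, in both renal cancer lines 786-O and 786-M1A. A gene entered the set when its raw counts averaged at least 50 over the 3 HK2 libraries and did not exceed 3 in any of the 6 libraries of the cancer lines, with GLUL, CDKN2A and CDKN2B left out. The table held 28395 genes, of which 12775 reached the HK2 mean of 50 counts, so that 2.55% of the genes read in HK2 at that depth were silent in both cancer lines. The counts that chose these genes are given as a description, and no test of the same counts is read as a result.

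RNA sequencing was performed on 9 libraries, 3 from each line. HK2 is an immortalised epithelial line of the normal kidney proximal tubule, 786-O is a parental line from a primary clear cell renal cell carcinoma (ccRCC), and 786-M1A is a metastatic derivative of 786-O obtained by passage through an animal. All of the lines were grown in Plasmax, a medium made to resemble human serum, with no treatment. Each condition is therefore a single line, and any difference between 786-O and HK2 is a difference between these lines and not between tumor and normal kidney in general.

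A cell keeps a large part of its genome silent, and which genes are silent depends on the lineage the cell came from and on the state it has taken. The silent state is held by chromatin and, at many promoters rich in CpG dinucleotides, by DNA methylation, and tumor cells often silence genes that their tissue of origin uses. Genes of the germline, of neurons and of the embryonic body plan are kept silent in most adult epithelia, although lines in culture commonly read some of them.

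The labels were compared with lineage markers before the silent genes were described. PAX8, a transcription factor of the renal tubule, was read in all of the lines, at 167 ± 5.67 counts per 1000000 counts (CPM; SD, n = 3) in HK2, at 165 ± 6.41 in 786-O and at 182 ± 8.50 in 786-M1A. CDH6, a cadherin of the proximal tubule, was highest in HK2 at 884 ± 36.5 CPM, and lower in 786-O (409 ± 13.1 CPM) and 786-M1A (266 ± 10.04 CPM). Markers of the mature tubule were uneven. LRP2, the receptor megalin, had 0 counts in each of the 9 libraries, and CUBN and AQP1 averaged about 1 CPM or less in every line. The brush border enzymes differed, as GGT1 averaged 108, 80.5 and 88.2 CPM in HK2, 786-O and 786-M1A, and ANPEP 1.74, 112 and 19.8 CPM. VEGFA and EGLN3, targets of the hypoxia-inducible factors that ccRCC activates, averaged 19.3 and 1.72 CPM in HK2 against 162 and 49.98 in 786-O and 330 and 127 in 786-M1A, whereas the ccRCC marker CA9 was at or near 0 in all lines. No silent gene was on the marker lists of endothelial cells (7 genes), leukocytes (7), fibroblasts (7) or other nephron segments (9), whose summed levels in HK2 were 2.60 to 2.70, 49.5 to 53.8, 77.7 to 87.1 and 2.21 to 2.50 CPM.

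Library totals lay between 30212291 and 45362428 counts. A count of 3, the ceiling of the rule, was between 0.0661 and 0.0993 CPM. Intervals and lower bounds below cover counting error only, and p-values measure the spread between cultures of a line.

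Promoter sequences are shown for some of the 15 silent genes highest in HK2 and for SMC1B and RIBC2, whose starts lie side by side. They were taken from RefSeq on GRCh38.p14, end 1 base before the annotated start of the gene, and are written 5′ to 3′ in lower case with each CpG dinucleotide (CG, read on the strand shown) in capitals. For GREM1 (chr15:32717754-32718003, plus strand), DKK1 (chr10:52314031-52314280, plus strand) and PHGDH (chr1:119711684-119711933, plus strand) these are 250 bases. For SMC1B and RIBC2, which start back to back and share a single upstream stretch, it is the 93 bases between the starts (chr22:45413600-45413692, written on the plus strand, the strand of RIBC2).
GREM1: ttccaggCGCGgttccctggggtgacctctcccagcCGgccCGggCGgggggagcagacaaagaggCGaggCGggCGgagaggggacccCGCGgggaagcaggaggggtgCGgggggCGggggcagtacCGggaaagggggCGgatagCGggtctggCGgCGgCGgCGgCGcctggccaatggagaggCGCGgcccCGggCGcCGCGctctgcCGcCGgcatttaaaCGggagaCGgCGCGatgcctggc
DKK1: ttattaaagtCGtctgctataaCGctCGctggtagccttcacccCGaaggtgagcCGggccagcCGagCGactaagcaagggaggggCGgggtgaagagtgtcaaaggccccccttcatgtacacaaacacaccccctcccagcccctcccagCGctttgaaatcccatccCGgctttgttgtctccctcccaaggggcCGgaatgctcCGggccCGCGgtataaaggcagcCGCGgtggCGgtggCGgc
PHGDH: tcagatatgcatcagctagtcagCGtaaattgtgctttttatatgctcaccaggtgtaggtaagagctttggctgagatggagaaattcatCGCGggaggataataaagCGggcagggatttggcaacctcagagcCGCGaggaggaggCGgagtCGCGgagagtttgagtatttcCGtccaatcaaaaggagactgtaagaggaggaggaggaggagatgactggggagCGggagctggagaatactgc
SMC1B to RIBC2: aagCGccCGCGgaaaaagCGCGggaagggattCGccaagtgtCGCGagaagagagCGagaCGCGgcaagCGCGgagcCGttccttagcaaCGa

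These stretches hold 32 CpG (GREM1), 18 (DKK1), 11 (PHGDH) and 15 (SMC1B to RIBC2). Among the genes tested for differences between the lines, 10191 of 12695 had an entry of this kind, 99.2% of them held at least 1 CpG in the 250 bases before the start and their median was 21. GREM1 therefore lies above that median, and DKK1 and PHGDH below it. A comparison of promoters over the whole set is void, because only 235 of the 326 silent genes had an entry. DNA methylation of these lines was not analysed here, and nothing about it follows from the letters.

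The rule set the minimum of the silent genes in HK2, and many lay close to it. Their summed reads there were carried largely by few genes and do not describe the typical member. Together the silent genes took 165681, 210714 and 250114 reads of the HK2 libraries 1, 2 and 3. These sums were 0.548%, 0.540% and 0.551% of the counts of those libraries. The same genes received 166, 139 and 136 reads in the 786-O libraries and 98, 101 and 77 in those of 786-M1A. Summed over the libraries of a line this was 441 of 123988042 counts in 786-O and 276 of 116066339 in 786-M1A. In RNA from bulk cultures, a lower level in every cell cannot be told apart from fewer cells that express the gene.

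Of the 326 genes, 123 (37.7%) had no read in any of the 6 cancer libraries, 122 had between 1 and 3 reads over the 6, and 81 had 4 or more. By line, 153 were without a read in 786-O and 197 in 786-M1A. For genes with no read, HK2 was taken against a floor of 3 counts over the 6 libraries (0.0127 CPM), which gave levels in HK2 that were at least 101-fold to at least 4825-fold higher (median bound, 343-fold). For the others, the ratio of HK2 to the summed cancer libraries ran from 27.8 to 38931, with a median of 377. The single genes with the most reads in the cancer lines were LINC02478, KIF5A and RIPOR3, with 12 over the 6 libraries each. KIF5A, a motor of axonal transport, was read 48, 58 and 60 times in HK2, 3, 1 and 3 times in 786-O and 1, 1 and 3 times in 786-M1A, a ratio of 27.8 (95% exact interval, 15.5 to 54.9).

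**Figure D1:**
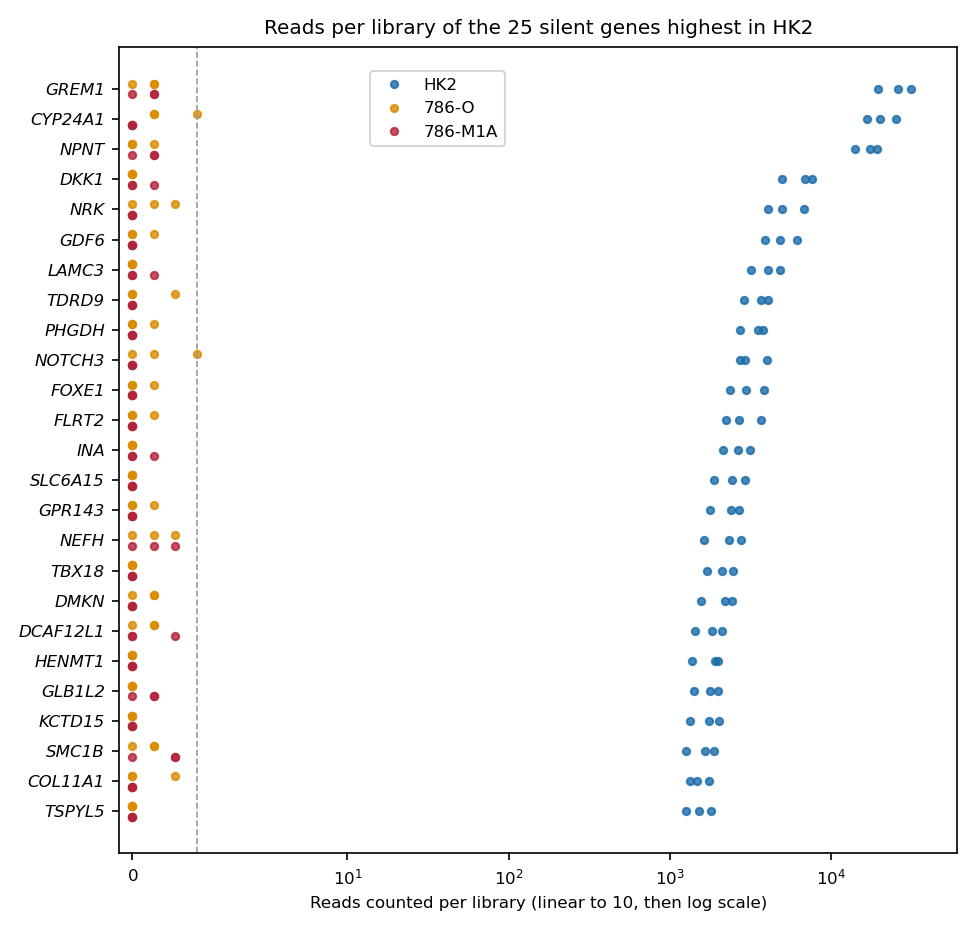
Reads per library (horizontal axis, linear to 10 and logarithmic above) of the 25 silent genes with the highest CPM in HK2, 1 gene per row and 1 point per library, with HK2 in blue, 786-O in orange and 786-M1A in red. The dashed line marks the ceiling of 3 reads; all HK2 points lie above 1000 reads and those of the cancer lines at 0 to 3, a gap that the rule fixed.

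The plot of reads per library shows how far apart the lines were for the genes read most. Reads in HK2 were concentrated in few genes, as GREM1, CYP24A1 and NPNT held the most, the first 10 genes took 44.8% of the reads of the set and the first 15 took 51.1%. At the other end, many genes were close to the rule, with a median HK2 mean of 157 counts (3.97 CPM). A mean of 100 counts was reached by 214 genes, 500 by 79 and 1000 by 43.

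**Figure D2:**
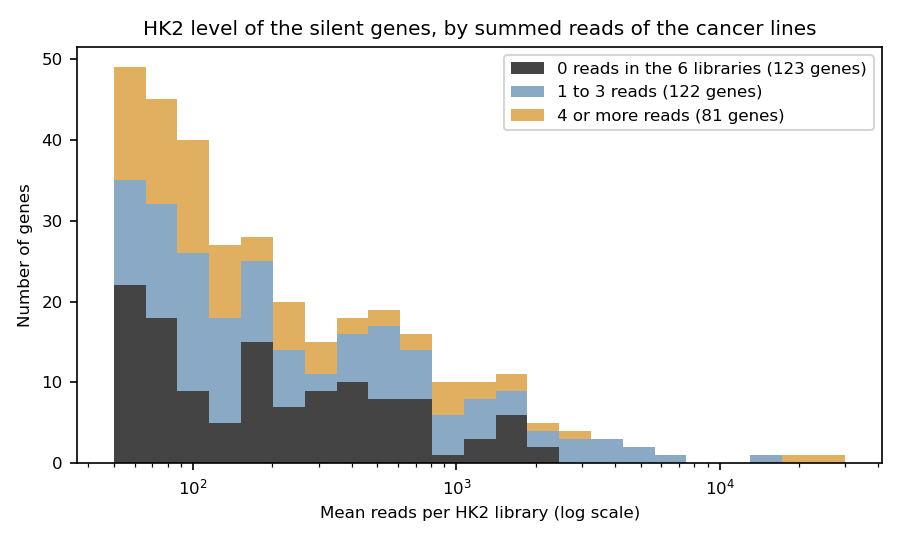
Number of silent genes (vertical axis) by their mean reads per HK2 library (horizontal axis, log scale), split by the reads they had over the 6 cancer libraries (black, 0; blue, 1 to 3; orange, 4 or more). Genes without a read in the cancer lines occur from the minimum of 50 reads up to SLC6A15 with a mean of 2399.

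Replicates of HK2 were close. The coefficient of variation over the 3 libraries had a median of 7.53% over the 326 genes and of 4.0% over the 79 genes with at least 500 counts, beside 3.57% for 9032 other genes of that depth. The most variable were LTB, a lymphotoxin subunit (29, 75 and 76 counts), CCM2L (42, 92 and 69) and UNC5D, a netrin receptor (57, 85 and 56), all read at low counts. In contrast, SMC1B varied by 0.494%.

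The first group by reads were secreted antagonists and ligands of the BMP and WNT pathways, which carry signals between cells in development and in repair. GREM1, a secreted antagonist of BMP ligands on chromosome 15 (32718004 to 32745106), was read 19383, 25678 and 31331 times in HK2, 0, 1 and 1 times in 786-O and 0, 1 and 1 times in 786-M1A. Its level in HK2 was 645 ± 27.6 CPM, and its ratio to the cancer lines was 38404 (95% exact interval, 14999 to 140953). DKK1, a secreted inhibitor of WNT receptors (chromosome 10, 52314281 to 52317657), was read 4933, 6875 and 7552 times in HK2, never in 786-O, and once in a single 786-M1A library.

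GDF6, a BMP ligand, was read 3895, 4808 and 6079 times in HK2 and once in the 6 cancer libraries. BMP4, another ligand of the pathway and one used in kidney development, stood much lower at 231, 255 and 315 counts in HK2, with 3, 0 and 1 in 786-O and 0, 1 and 0 in 786-M1A. RSPO3, which amplifies WNT signals, had 78, 120 and 149 reads in HK2, and FZD9, a WNT receptor, had 57, 75 and 106 with none in the cancer lines. These 6 were all the silent genes among 33 listed ligands, receptors and inhibitors that reached 50 counts in HK2, a list drawn up after the values were seen. 2 further antagonists were read in all of the lines and were lower in the cancer lines. CHRDL1, a BMP antagonist, had 519 ± 12.5 CPM in HK2, 7.70 ± 0.178 in 786-O (log2 fold change -6.08 ± 0.05 SE, adjusted p = 9.3e-28) and 75.6 ± 2.17 in 786-M1A (-2.78 ± 0.04, adjusted p = 5.1e-24), by edgeR's quasi-likelihood test with Benjamini-Hochberg adjustment over all genes tested. DKK3 fell by 3.07 on the log2 scale in 786-O and by 2.89 in 786-M1A. Over the whole list, 7 of the 27 tested genes outside the silent set were at least 2-fold lower in 786-O and 4 higher, with 9 and 4 in 786-M1A. As background, 13.1% of all genes tested were at least 2-fold lower in 786-O than in HK2 and 9.18% higher, and for 786-M1A these shares were 15% and 10.4%. The counts of every list below are to be read beside these shares, and counts of silent genes beside the 2.55% of genes read in HK2. No list was tested against them.

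Enzymes that clear vitamin D and retinoids formed a second group. CYP24A1, the mitochondrial hydroxylase that inactivates vitamin D in the proximal tubule (chromosome 20, 54143538 to 54173986), was read 16553, 19879 and 24961 times in HK2, 3, 1 and 1 times in 786-O and never in 786-M1A. At 521 ± 24.7 CPM in HK2, its ratio to the cancer lines was 24691 (10580 to 76046). RBP7, a retinoid-binding protein, had 1073, 1453 and 1629 reads in HK2 and a single read in each of 3 cancer libraries.

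Other members of the group were read at low levels in HK2. CYP27C1, a retinoid desaturase, had 153, 165 and 186 counts, and the retinoic acid hydroxylases CYP26C1 and CYP26A1 had 68, 84 and 94 and 34, 67 and 71, the latter pair with no read in the cancer lines. Of 20 vitamin D and retinoid genes read in HK2, a list also drawn up after the values were seen, these 5 were silent. The vitamin D receptor VDR was not silent, and stood at 10.2 ± 0.783 CPM in HK2, 5.27 ± 0.226 in 786-O (log2 fold change -0.95 ± 0.08, adjusted p = 5.6e-10) and 2.25 ± 0.104 in 786-M1A (-2.17 ± 0.10, adjusted p = 4.6e-15). CYP27B1, which activates vitamin D, was read at 1.52, 3.76 and 2.62 CPM in the 3 lines. CYP27A1, a sterol hydroxylase, and LRAT, which esterifies retinol, were outside the set, with log2 fold changes of -6.83 in 786-O and -9.07 in 786-M1A for CYP27A1 and of -7.31 and -5.30 for LRAT. In the wider list of detoxification enzymes, 5 of 44 genes read in HK2 were silent, namely CYP24A1, SULT4A1, CYP27C1, CYP26C1 and CYP26A1, and 16 and 18 of the 43 others tested were lower in 786-O and 786-M1A (8 and 6 higher).

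Matrix and adhesion genes held the next places. NPNT, which encodes the basement membrane protein nephronectin, a ligand that kidney development needs, was read 14026, 17387 and 19101 times in HK2, 1, 0 and 0 times in 786-O and 1, 0 and 1 times in 786-M1A (chromosome 4, 105895471 to 105971671; 431 ± 19.3 CPM in HK2). It overlaps INTS12 on the other strand, and whether the counting used strand is not given in the sources used here. LAMC3, a laminin chain, had 3168, 4045 and 4789 reads in HK2 and 1 in the cancer libraries. FLRT2, an adhesion and guidance protein, had 2205, 2664 and 3675 reads in HK2 and also 1.

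Among the listed collagens and matrix proteins, 5 of 51 read in HK2 were silent. COL11A1, a fibrillar collagen, had 1324, 1477 and 1745 reads in HK2 and 2, 0 and 0 in 786-O, with none in 786-M1A. FBN2, a fibrillin of microfibrils, had 967, 1104 and 1612, COL22A1 had 504, 684 and 853, and HAPLN4, a hyaluronan link protein, had 127, 122 and 172. TNXB stood at the edge of the rule with 48, 53 and 53 reads in HK2 and 8 over the cancer libraries, and is reported as uncertain because a near-identical partial copy lies beside it. Much of the rest of this list was lower too, since of 48 tested genes outside the set, 28 were at least 2-fold lower in 786-O and 5 higher, with 30 and 4 in 786-M1A, and their median log2 fold changes were -1.73 and -1.64 beside -0.01 and -0.02 over all genes tested. FBLN1, a matrix glycoprotein, fell from 162 ± 3.27 CPM in HK2 to 0.235 ± 0.0313 in 786-O and 0.0713 ± 0.0162 in 786-M1A, and was outside the set. EMILIN2 fell from 52.3 ± 1.21 CPM to 0.0392 ± 0.0246 and 0.160 ± 0.0236. The list did not move as a whole, as COL6A3, a chain of collagen VI, rose from 4.26 ± 0.239 CPM to 389 ± 33.2 in 786-O and 1876 ± 193 in 786-M1A.

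PHGDH, the first enzyme of serine synthesis from a glycolytic intermediate, was the metabolic enzyme with the most reads in the set after CYP24A1. It was read 2697, 3490 and 3749 times in HK2 (84.7 ± 3.30 CPM) and once in the 6 cancer libraries, a ratio of 19980 (3585 to 789257). The other enzymes of the pathway behaved differently. PSAT1, which takes the next step, had 42.4 ± 0.360 CPM in HK2 against 89.7 ± 0.984 in 786-O and 118 ± 3.43 in 786-M1A, a log2 fold change of 1.08 ± 0.04 (adjusted p = 1.7e-16) and 1.48 ± 0.04 (adjusted p = 5.2e-19). PSPH, the last enzyme, had 29.2 ± 0.607, 29.2 ± 1.64 and 23.6 ± 1.36 CPM, and SHMT1 and SHMT2, which turn serine into glycine, had log2 fold changes of 0.02 and -0.30 in 786-O and of 0.10 and -0.29 in 786-M1A. Other silent enzymes had fewer reads, among them GALNT13, which starts O-glycans (1011, 1235 and 1469 reads in HK2 and none in the cancer lines), FUT9, a fucosyltransferase (853, 1048 and 1280, with 1), PDE3B, a cyclic nucleotide phosphodiesterase (662, 884 and 1073, with 5) and ELOVL4, which lengthens fatty acids (388, 542 and 594, with 2). These 4 enzymes were chosen after their values were seen.

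Receptors and kinases of several signalling pathways were in the set. NOTCH3, a Notch receptor, had 2724, 2915 and 3973 reads in HK2, 0, 3 and 1 in 786-O and none in 786-M1A, a ratio of 4832 (1887 to 17739). It was the only silent gene among the 10 listed Notch receptors, ligands and targets read in HK2, and NOTCH1 went the other way, from 35.8 ± 3.77 CPM in HK2 to 78.7 ± 5.16 in 786-O (adjusted p = 2.9e-09) and 106 ± 6.87 in 786-M1A (adjusted p = 6.0e-11). JAG1, a ligand, was at 615 ± 25.6, 540 ± 13.9 and 115 ± 1.35 CPM. Of the 9 others tested, 3 were lower in 786-O and 5 in 786-M1A, and 1 was higher in each.

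INSR, the insulin receptor, had 630, 703 and 902 reads in HK2 and no read in any cancer library, so that HK2 was at least 1498-fold higher. Its relative IGF1R was reduced but well read, at 99.5 ± 7.48 CPM in HK2, 46.1 ± 2.52 in 786-O (log2 fold change -1.11 ± 0.06, adjusted p = 1.7e-13) and 33.6 ± 1.62 in 786-M1A (-1.57 ± 0.06, adjusted p = 8.3e-16), while the substrate IRS2 rose by 1.60 and 1.77 on the log2 scale. Among 5 listed receptors and substrates read in HK2, INSR alone was silent. NRK, a germinal centre kinase family member on chromosome X, had 4042, 4960 and 6735 reads in HK2, 2, 0 and 1 in 786-O and none in 786-M1A. GPR143, a pigment cell receptor, had 1768, 2399 and 2678 reads in HK2 and 1 over the cancer libraries. CCND2, a D-type cyclin, had 506, 672 and 835 reads in HK2 and none in the cancer lines. The Notch and insulin lists were drawn up, and CCND2 chosen, after the values were seen.

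Transcription factors that pattern the embryo formed the gene list with the most silent genes. Of 73 listed homeobox, forkhead, T-box and related factors read in HK2, 22 (30.1%) were silent in both cancer lines, a list drawn up after the values were seen and so no measure of how the set differs from other genes. FOXE1, a forkhead factor of thyroid development, had 2354, 2943 and 3815 reads in HK2 and 1 in the cancer lines. TBX18, a T-box factor of the ureter mesenchyme, had 1683, 2100 and 2439 and none, which puts HK2 at least 4171-fold higher. IRX4 had 887, 1235 and 1513 reads in HK2 with 2 in 786-O, and NKX2-4 had 752, 1131 and 1224 with 2.

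The remaining factors had fewer than 1000 reads in HK2. HHEX was read 330, 435 and 463 times in HK2, LHX6 291, 395 and 434 times, MNX1 291, 369 and 437 times and TWIST1 266, 332 and 381 times, and none of these had a read in the cancer lines. SIX2, which marks nephron progenitors, had 56, 76 and 92 reads in HK2 and none elsewhere, and TCF21, a factor of renal stroma, had 72, 90 and 110, with 1. The other factors on this list moved in both directions, as 13 of 52 tested were lower and 15 higher in 786-O, with 15 and 15 in 786-M1A. Of 28 HOX genes read in HK2, 1 was silent, beside 2.55% of all genes read in HK2. It was HOXB13 (136, 182 and 244 reads in HK2 and 3 in 786-M1A). Of 30 other HOX genes tested, 12 were higher in 786-O and 13 in 786-M1A, and 1 was lower in each, HOXA7, which encodes a homeobox factor of the trunk (6.71 ± 0.229 CPM in HK2 against 0.586 ± 0.149 in 786-O and 0.0276 ± 0.0479 in 786-M1A).

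Genes of meiosis and of the piRNA pathway, normally read in germ cells, were another group. TDRD9, a helicase of piRNA production, had 2887, 3667 and 4071 reads in HK2, 0, 0 and 2 in 786-O and none in 786-M1A. HENMT1, the methyltransferase that protects piRNA ends, had 1373, 1887 and 1975 in HK2 and none in the cancer lines. SMC1B, a cohesin subunit of meiosis, had 1256, 1644 and 1877 in HK2, 1, 1 and 0 in 786-O and 2, 2 and 0 in 786-M1A.

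MEIOB, which binds DNA in meiotic recombination, had 927, 1293 and 1443 reads in HK2 and 5 over the cancer libraries, and YBX2, a germ cell RNA-binding protein, had 493, 640 and 778 and none. C14orf39, of the synaptonemal complex, LIN28A and NPM2 were at 111 to 195 reads in HK2. These 8 genes were among 18 on the list that were read in HK2, and the list was drawn up after the values were seen. Some meiotic genes outside the set fell without reaching silence. STAG3, a partner of SMC1B in meiotic cohesin, went from 108 ± 4.12 CPM in HK2 to 0.627 ± 0.149 in 786-O (log2 fold change -7.44 ± 0.11, adjusted p = 8.5e-22) and 0.796 ± 0.321 in 786-M1A (-7.08 ± 0.11, adjusted p = 1.1e-21). SYCP2, of the synaptonemal complex, fell by 4.71 and 5.53 and MEIOC by 4.80 and 5.34 on the log2 scale. Of 10 such genes tested, 4 were at least 2-fold lower in 786-O and 0 at least 2-fold higher by edgeR, DESeq2 or limma. TDRD7, PLD6 and REC8 rose by less than 2-fold in 786-O, with log2 fold changes of 0.69, 0.40 and 0.61. Their adjusted p by edgeR's test were 1.7e-12, 0.0014 and 0.0014. TDRKH fell by less than 2-fold (-0.71, adjusted p = 4.2e-11 by the same test). In 786-M1A, 5 of the 10 were at least 2-fold lower and 1 higher.

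Neuronal genes were also silent in the cancer lines. INA, the neurofilament subunit internexin, had 2133, 2630 and 3126 reads in HK2 and 1 in the cancer lines, and NEFH, the heavy neurofilament subunit, had 1631, 2330 and 2759 with 0, 1 and 2 in 786-O and 1, 2 and 0 in 786-M1A. PTPRN, UNC13A, CHGB, SYN1 and SYT10, genes of secretory and synaptic vesicles, were read between 51 and 793 times per HK2 library. That makes 8 of 18 listed genes read in HK2, again in a list drawn up after the values were seen, and the light neurofilament subunit NEFL went the other way, from 0.430 ± 0.0579 CPM in HK2 to 279 ± 5.22 in 786-O and 274 ± 12.5 in 786-M1A. Of 10 others tested, 3 were lower and 4 higher in 786-O, with 3 and 3 in 786-M1A.

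The epithelial programme contributed 4 of the 39 listed genes read in HK2. DSC3, a desmosomal cadherin, had 1200, 1467 and 1841 reads in HK2 and none in the cancer lines, at least 3022-fold higher in HK2. CDH3, which encodes P-cadherin, had 316, 395 and 490 with 1, ESRP1, a splicing regulator of epithelia, had 125, 163 and 178 with 6, and OVOL2, a repressor of mesenchymal transition, had 52, 62 and 76 with none. Most epithelial genes outside the set were lower as well, 21 of 35 tested in 786-O and 22 in 786-M1A, with 3 higher in each and median log2 fold changes of -1.64 and -2.67. The largest falls were those of DSP, which encodes desmoplakin (300 ± 34.5 CPM in HK2, 0.577 ± 0.260 in 786-O, 0.0984 ± 0.0430 in 786-M1A), and LAD1 (73.7 ± 1.59, 0.193 ± 0.0397 and 0.0530 ± 0.0258 CPM), which were outside the set, whereas LLGL2, a polarity gene, rose from 1.11 ± 0.147 to 18.7 ± 0.329 and 16.6 ± 0.916 CPM. Of 12 keratins read in HK2, KRT72 alone was silent (39, 46 and 67 reads). KRT7, a keratin of simple epithelia, fell from 263 ± 11.8 CPM to 0.509 ± 0.133 in 786-O and 0.186 ± 0.0481 in 786-M1A, and among 12 keratins tested outside the set 7 and 5 were lower and 1 was higher.

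Ion channel subunits and transporters were both in the set. Of 59 listed channel subunits read in HK2, 11 (18.6%) were silent, with KCNS1, a modifying subunit of voltage-gated potassium channels, at the head (849, 1022 and 1229 reads in HK2, 1, 0 and 0 in 786-O and 3, 3 and 0 in 786-M1A). KCNK5, a background potassium channel used in the proximal tubule, had 254, 361 and 364 reads in HK2 and none in the cancer lines, and KCNQ3 had 220, 277 and 363 with 2. Of 45 other subunits tested, 12 were lower and 8 higher in 786-O, and 15 and 8 in 786-M1A. Of 230 solute carriers read in HK2, 4 (1.74%) were silent, beside 2.55% of all genes read in HK2. SLC6A15, a carrier of branched-chain and other neutral amino acids, was the gene with the most reads in HK2 among all those with none in the cancer lines (1865, 2421 and 2912), at least 4825-fold higher. SLC25A33, a mitochondrial pyrimidine nucleotide carrier, had 311, 452 and 540 reads in HK2, and SLC9B2, a sodium and proton exchanger, had 254, 367 and 451, both with none in the cancer lines. SLC6A17, a vesicular amino acid carrier, had 236, 252 and 289 with 3. Outside the set, 30 of 224 carriers tested were lower and 29 higher in 786-O, with 38 and 32 in 786-M1A. Over all genes tested, 13.1% were lower and 9.18% higher in 786-O, and 15% and 10.4% in 786-M1A.

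Zinc finger genes, mostly repressors of transcription, numbered 13 of 455 read in HK2 (2.86%), near the 2.55% over all genes read in HK2. ZNF711, on chromosome X, had 390, 518 and 527 reads in HK2 and none in the cancer lines, ZNF853 had 171, 209 and 271 with 6, ZNF880 had 152, 202 and 232 with 3, and ZNF135 had 75, 122 and 119 with none. Of 429 others tested, 61 were lower and 22 higher in 786-O, and 75 and 28 in 786-M1A. The shares over all genes tested were 13.1% and 9.18% in 786-O, and 15% and 10.4% in 786-M1A. Among 4 clustered protocadherins read in HK2, PCDHGB5 was silent (74, 87 and 129 reads in HK2 and 2 in 786-M1A), whereas 9 of 11 tested outside the set were higher in 786-O and 8 in 786-M1A, and 1 was lower in each. By gene type the set held 298 protein-coding genes, 21 long non-coding RNA genes and 5 transcribed pseudogenes. The list of long non-coding RNAs, defined by the form of the name, counted 14 of 227 read in HK2 (6.17%, beside 2.55% of all genes). All were read weakly there, with PRKAR1B-AS1 (67, 81 and 95 reads), TTN-AS1 (68, 66 and 97), C2CD4D-AS1 (50, 71 and 92) and LINC01356 (47, 80 and 86) first. Outside the set, 20 of 229 were lower and 53 higher in 786-O, and 23 and 59 in 786-M1A. CDKN2B-AS1, the antisense RNA of the locus whose protein-coding genes were left out, had 53, 64 and 66 reads in HK2 and none in the cancer lines.

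**Figure D3:**
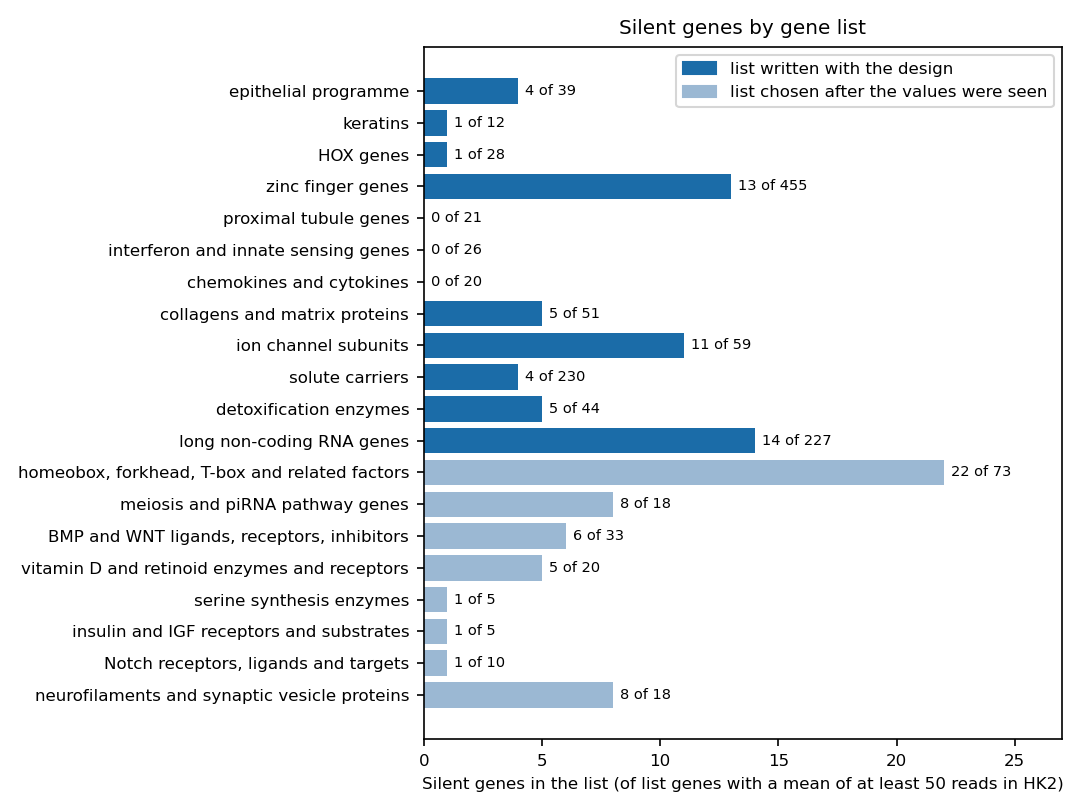
Number of silent genes (horizontal axis) in each gene list (vertical axis), printed as silent genes of the list genes with a mean of at least 50 reads in HK2, for lists written with the design (dark) and lists drawn up after the values were seen (light). Developmental factors hold 22 of 73, meiosis and piRNA genes 8 of 18, and the proximal tubule, interferon and chemokine lists hold none. The share over all genes read in HK2 was 2.55%, and the light bars were picked for their members.

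The plot of gene lists also shows lists with no silent gene. None of 21 proximal tubule genes, 26 interferon and innate sensing genes or 20 chemokines and cytokines read in HK2 was silent in both cancer lines. The share over all genes read in HK2 was 2.55%, so 0 in lists this short is near that share and sets none of them apart. Beside the shares of all genes given above, some of each list passed the test. Of 21 proximal tubule genes tested, 4 were lower and 7 higher in 786-O, with 6 and 7 in 786-M1A, and MIOX, the tubular inositol oxygenase, went from 9.18 ± 0.695 CPM in HK2 to 0.444 ± 0.195 and 0.250 ± 0.0795. Of 32 interferon genes tested, 17 were higher and 4 lower in 786-O, and 12 and 5 in 786-M1A. Of 20 chemokines and cytokines tested, 7 were lower and 6 higher in 786-O, and 8 and 6 in 786-M1A, CXCL8 falling from 259 ± 24.9 CPM to 0.754 ± 0.170 and 2.84 ± 0.314.

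CPM does not correct for the length of a gene, so levels of different genes were compared in CPM per kilobase of exon, which could be had for 316 of the 326. On that scale CYP24A1 led with 131 in HK2, followed by DKK1 with 73.8, NPNT with 70.6, GREM1 with 43.6, RBP7 with 40.9 and GDF6 with 33.7. GREM1, first by reads, was thus below CYP24A1, DKK1 and NPNT per kilobase.

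The silent genes were spread over the genome. All chromosomes but Y held some, from 1.25% of the genes read in HK2 on chromosome 15 (5 of 400) to 5.54% on chromosome X (25 of 451), with 4.15% on chromosome 20 (14 of 337) and 3.72% on chromosome 19 (33 of 888). Only 16 of the 326 lay next to another in gene order, in 8 pairs, and 28 had another within 100 kb.

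**Figure D4:**
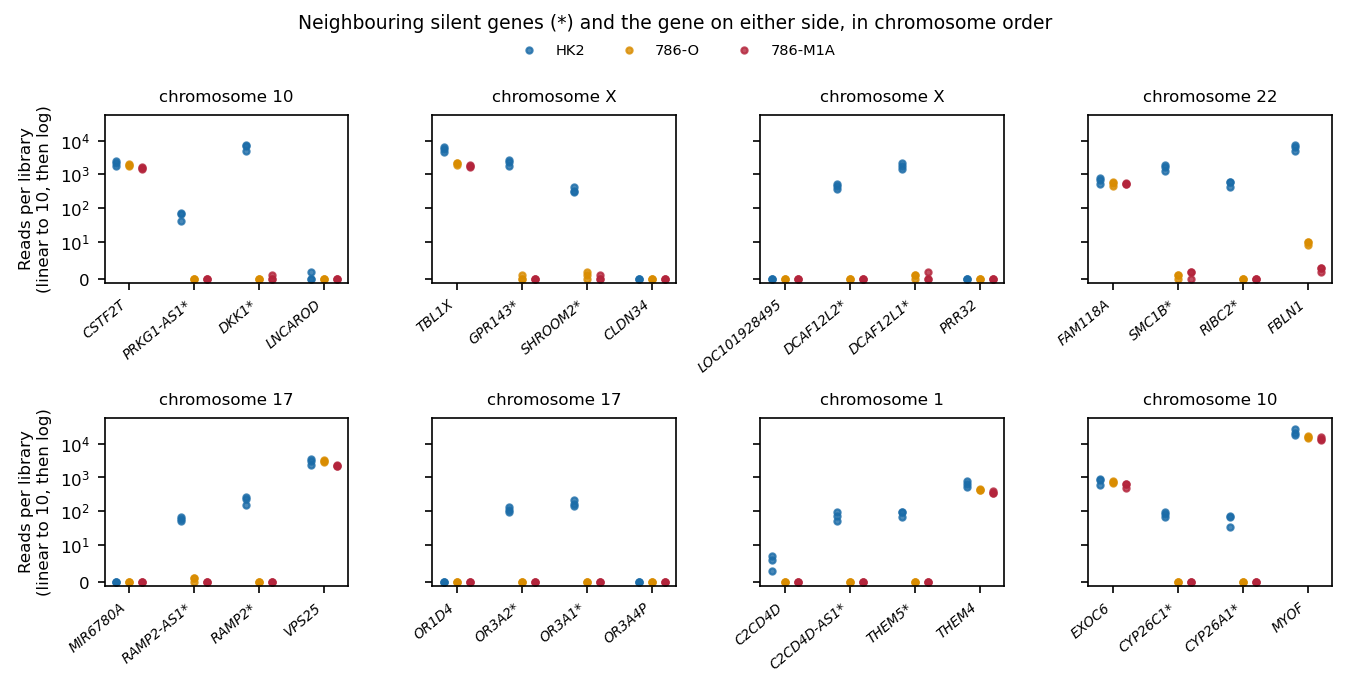
Reads per library (vertical axis, linear to 10 and logarithmic above) for the 8 pairs of adjacent silent genes, marked with an asterisk, and the gene on either side in chromosome order, with HK2 in blue, 786-O in orange and 786-M1A in red. The flanking genes CSTF2T, FAM118A, VPS25, THEM4, EXOC6 and MYOF had over 100 reads in each library. TBL1X had over 100 as well but was at least 2-fold lower in both cancer lines, and FBLN1 was reduced to 2 to 10 reads there. The flanks LNCAROD, CLDN34, LOC101928495, PRR32, MIR6780A, OR1D4, OR3A4P and C2CD4D had at most 7 reads in any library, HK2 included. The DCAF12L and OR3A pairs thus had no flank that was read.

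Both pairs whose upstream stretches are shown above lie on opposite strands. SMC1B and RIBC2, a protein of sperm and ciliary axonemes, start 94 bases apart on chromosome 22 on either side of the 93 bases shown above. RIBC2 had 413, 599 and 609 reads in HK2 and none in the cancer lines. FAM118A, on the far side of SMC1B, had 508, 663 and 770 reads in HK2, 575, 458 and 545 in 786-O and 515, 541 and 523 in 786-M1A. FBLN1, the next gene after RIBC2, had 5049, 6414 and 7673 in HK2, 9, 10 and 10 in 786-O and 3, 3 and 2 in 786-M1A. A gene at least 2-fold lower thus bounded the silent stretch on only that side. FAM118A was lower by less than 2-fold, with log2 fold changes of -0.38 in 786-O and -0.23 in 786-M1A.

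DKK1 and PRKG1-AS1, a long non-coding RNA, start 153 bases apart on chromosome 10, and PRKG1-AS1 begins within the DKK1 stretch shown above. PRKG1-AS1 had 41, 67 and 73 reads in HK2 and none in the cancer lines. CSTF2T comes before it in order of start position but ends at 51699595, far from PRKG1-AS1 (52296848 to 52314128), and is no close border. CSTF2T had 1809, 2165 and 2480 reads in HK2, 2063, 1751 and 1950 in 786-O and 1475, 1628 and 1579 in 786-M1A. CYP26C1 and CYP26A1 lie between EXOC6 and MYOF, which were read in all lines, EXOC6 503 to 924 times and MYOF 12842 to 27689 times per library. The RAMP2 pair, RAMP2 (150, 234 and 266 reads in HK2), which encodes a partner of the calcitonin receptor family, and RAMP2-AS1 (51, 59 and 66), overlap on opposite strands, as do THEM5 (66, 96 and 95) and C2CD4D-AS1, and reads of such pairs cannot be told apart without strand.

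The other pairs were GPR143 with SHROOM2 (302, 315 and 430 reads in HK2), beside TBL1X, and DCAF12L2 (374, 451 and 527) with DCAF12L1 (1427, 1830 and 2106) on chromosome X, and the olfactory receptors OR3A2 (97, 112 and 130) and OR3A1 (139, 165 and 208) on chromosome 17. TBL1X, which encodes a corepressor subunit, had 4555, 5535 and 6648 reads in HK2, 2249, 1892 and 2187 in 786-O (log2 fold change -1.49 ± 0.04) and 1620, 1861 and 1727 in 786-M1A (-1.62 ± 0.04), lower in both. The DCAF12L and OR3A pairs are related copies, among which shared reads could be split, and the same holds for CKMT1A and CKMT1B, near-identical copies of a mitochondrial creatine kinase (297, 389 and 492, and 186, 249 and 267 reads in HK2). Of the 316 silent genes matched to the annotation, 96 overlapped another gene of the table on the opposite strand.

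Genes beside silent genes were tested, since the rule did not use them. Among the 598 nearest tested genes on either side that were not in the set, 105 (17.6%) were at least 2-fold lower in 786-O than in HK2 and 120 (20.1%) in 786-M1A, next to 13.1% and 15% of all genes tested. Their median log2 fold changes were -0.14 and -0.13, beside -0.01 and -0.02 over all genes. With the nearest 3 genes on either side (1682 genes), the shares were 15% and 17.5%. Most neighbours were therefore not lower, and the difference between these shares was not tested.

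Silence in the cancer lines was asked of each line separately by the same ceiling. In 786-O, 355 of the 12775 genes read in HK2 met it, and 91.8% of these also met it in 786-M1A. In 786-M1A, 484 genes met it, and 67.4% of these met it in 786-O, leaving 29 genes silent in 786-O alone and 158 in 786-M1A alone. The reverse set, which averaged 50 counts or more in both cancer lines and had no more than 3 in any HK2 library, held 66 genes. The lines share the HK2 libraries and 786-M1A was derived from 786-O, so these numbers are not independent of each other.

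Only 167 of the silent genes passed the filter on low counts, a mean of 50 over the 9 libraries, and 159 did not. All of those tested were called lower in each cancer line, to which the rule had bound them, and nothing is read from that count beside the 13.1% and 15% of all genes. Between the cancer lines, 4.55% of all genes tested were at least 2-fold lower in 786-M1A than in 786-O and 2.03% higher. The ceiling held in both lines, so no count of silent genes called is given for that comparison.

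The rule drew a line through a continuous range. Just inside it were LINC02315 and ADCY1, an adenylate cyclase, with an HK2 mean of 50 counts, and FLJ16779 and SPX with 50.3. Just outside were KLF8 with 49.0, TEKT4P2 with 48.7 and ZNF300P1 with 48.3. On the side of the cancer lines, 89 genes read in HK2 had 4 to 6 reads in their highest cancer library. CYBRD1, an iron reductase (5552, 6526 and 7586 reads in HK2), reached 5 reads there, and the gene CPM, a carboxypeptidase (2264, 2821 and 3342), and COCH, a matrix protein (2093, 2907 and 3153), reached 6.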

How the data were processed

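RNA was sequenced from 3 cultures each of HK2, 786-O and 786-M1A. The authors made the libraries with the TruSeq Stranded mRNA kit, read them on a NextSeq, assigned reads to genes of GRCh38 with Rsubread (featureCounts, per the submitters' processing notes) and deposited the counts as whole numbers, with no normalization and no filter. The annotation version and the use of strand in counting are not given in the sources used here. Groups came from the labels of the samples, and 0 columns of the table were left unmapped.

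Symbols and positions came from RefSeq GRCh38.p14 (27745 of 28395 identifiers matched), and exon lengths and strand from GENCODE release 44 by symbol (316 of 326 silent genes). CPM used TMM-corrected totals. The 12695 genes averaging 50 counts or more across the 9 libraries were fitted together with edgeR 4.0.16 (robust quasi-likelihood, 1 coefficient per line, R 4.3.3), adjusted by Benjamini-Hochberg, and called at an adjusted p under 0.05 and a 2-fold difference. The biological coefficient of variation was 3.93%. On simulated counts of 12695 genes, 200 of them changed, all 200 changed genes and 7 unchanged ones had an adjusted p under 0.05. This was for the comparison of 786-O with HK2, and the 2-fold limit was not applied to the simulated counts. Alternatives were DESeq2 1.42.0, limma 3.58.1 (limma-trend, added after seeing the data), RLE and upper-quartile scaling, no filter, a fit of the compared lines alone, the replicate number as a block, each library left out, and other limits of the rule. Ratios of summed counts carry exact conditional binomial 95% intervals (scipy 1.17.1, Python 3.11.15).

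The silent genes and all gene lists were chosen with earlier results of these data known, and 8 lists (developmental factors, meiosis and piRNA, BMP and WNT, vitamin D and retinoids, serine synthesis, insulin and IGF, Notch, neurofilaments and synaptic vesicles) were drawn up after the values were seen. All lists but the long non-coding RNAs were restricted to protein-coding genes, a correction made after pseudogenes and KCNQ1OT1 had matched by name. Named by rule were the 15 silent genes with the highest HK2 CPM, up to 4 per list by CPM, adjacent ones with their neighbours, the extremes of level, cancer reads and variation, and per list the 2 largest falls and rises outside the set. The paper's other data types were not analysed here. A few genes that the rule would name are left unreported.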

Additional observations from a re-analysis of the deposited data

Results flagged for a closer look

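In 15 genes outside the silent set, 786-M1A differed from 786-O by at least 2-fold (edgeR's quasi-likelihood test, adjusted p under 0.05). Their change from HK2 was thus not the same in both cancer lines. Over all genes tested, 4.55% were at least 2-fold lower in 786-M1A than in 786-O and 2.03% higher. The 15 came from the gene lists with at least 4 silent genes. They had been named for the largest changes from HK2, so their number does not measure how often the cancer lines differ. Among genes that were low in both cancer lines, DSP (log2 fold change of 786-M1A against 786-O, -2.49), CYP27A1 (-2.25), SLCO2A1 (-1.82), LAD1 (-1.79), FBLN1 (-1.67) and KCNK2 (-1.24) were lower still in 786-M1A, whereas EMILIN2 (1.91) and the long non-coding RNA LINC03040 (1.81) were higher there. ZNF362 (-5.78), the sodium channel subunit SCN8A (-5.09) and the potassium channel subunit KCNJ8 (-4.48) fell mainly in 786-M1A. COL6A3 (2.27), ZNF185 (1.30) and KCNMB4 (-1.45), all higher in 786-O than in HK2, differed between the cancer lines too. KCNJ5-AS1 was lower in 786-O than in HK2 and stood 4.67 higher in 786-M1A than in 786-O. Named genes of the other lists differed as well, among them HOXA7 (-4.30), KRT7 (-1.45) and CXCL8 (1.89). A further 3 genes (LOXL4, SLC16A9 and SLC22A17) were at 0 reads in 786-M1A and were left out, since a fitted fold against 0 depends on the prior count. Several of these genes have fewer than 1 CPM in both cancer lines.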

How the results depend on the processing

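The number of silent genes follows from its limits: 123 with a ceiling of 0 counts, 511 with a ceiling of 10, and 214 with an HK2 mean of at least 100, while a mean of 20 gave 439, 50 counts in every HK2 library 287 and counts scaled to the median library 297. Without the filter on low counts, more genes were tested and 3310 were lower in 786-O than in HK2, 3723 in 786-M1A than in HK2 and 1127 in 786-M1A than in 786-O. The same setting raised the lower genes outside the set in 786-O to 94 zinc finger genes, 14 chemokines and cytokines, 38 ion channel subunits, 66 solute carriers, 25 detoxification enzymes and 214 long non-coding RNAs, and in 786-M1A to 13 proximal tubule genes, 15 chemokines and cytokines, 39 channel subunits, 85 carriers, 30 detoxification enzymes and 215 long non-coding RNAs. Within 100 kb, 28 silent genes had another, against 16 that were adjacent. With each library left out in turn, lower genes numbered 1667 to 1672 in 786-O and 1885 to 1922 in 786-M1A against HK2, and 566 to 577 in 786-M1A against 786-O. Totals without TMM factors moved the HK2 level of 5 of the 15 highest silent genes by more than its SD, upward in each. All other settings left the counts within 1.5 times.

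Replicates share numbers in the labels, but deviations of same-numbered libraries correlated between -0.167 and 0.215, so the numbers do not pair the cultures. A block on the replicate number gave 1662, 1902 and 578 lower genes in the 3 comparisons, and no other count changed by over 1.5 times.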
